A study of Mus musculus with 4 samples.

Results

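Interferon-response genes are the genes that cells switch on when type I interferon, or for part of them interferon gamma, reaches them. Here they were 39 genes given by symbol and selected on measured values of these same libraries, so their levels are given as a description without a test. Of the 39, 37 had a row among the 32285 genes counted, and Mx1 and Mx2 were not analysed here. They were followed in 51679 bone marrow cells of 4 single-cell libraries from mice at 10 weeks post-transplantation. All cells had been sorted for CD45.2, the form of a leukocyte antigen that commonly separates donor from recipient cells. The libraries were 1 each of Kit+ cells of controls, Kit+ cells deleted for Mll3/4, Kit+ cells of the genotype written Mll3/4SI, and B220lo cells of controls. Kit marks stem and progenitor cells, B220 at a low level marks B-lineage cells and plasmacytoid dendritic cells, and MLL3 and MLL4 are histone methyltransferases. The labels do not expand SI, and they do not give the Cre or promoter behind the deletion, the age or sex of the animals, or the number of mice per library. With 1 library per group there was no test and no p-value, and genotype cannot be told apart from mouse or library. Intervals given below are exact 95% intervals that cover counting error only.

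Interferons bind receptors on the cell surface, IFNAR1 with IFNAR2 for type I interferon, and the attached kinases JAK1 and TYK2 pass the signal on to transcription factors, STAT2 and IRF9 among them. The complex ISGF3, which holds both, binds a short promoter motif, the interferon-stimulated response element (ISRE). The induced genes restrict viruses in several ways. IFIT proteins bind foreign RNA, OAS enzymes make the signal that activates the nuclease RNase L, ISG15 is a ubiquitin-like tag, and IRF7 raises further interferon production. Stem and progenitor cells of the marrow are known to keep a basal level of part of this set and to leave quiescence when interferon is given.

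Promoters of the members were read from RefSeq (build GRCm38.p6), where 29 of the measured members had an entry. The ISRE core was searched as the letters GAAA, any 2 bases, and GAAA again, or TTTC, any 2 bases, and TTTC for the other strand, within 250 bases upstream of each start. Matches can overlap each other. It stood in 15 of the 29 genes (51.7%), against 3.46% of all 27025 genes with a promoter entry. The sequences below are those of members whose levels carry the account that follows, with ISRE letters in capitals. Each runs 5′ to 3′ on the strand of the gene and leaves out bases that GENCODE M21 places in an exon. Isg15 has 3 overlapping matches (chr4:156200819-156201018, minus strand), Ifit1 has 2 (chr19:34640744-34640870, plus strand) and Ifit3 has 2 (chr19:34583329-34583528, plus strand). Rsad2 has 1 (chr12:26456453-26456652, minus strand) and Oas3 has 1 (chr5:120777662-120777795, minus strand). Gbp3 has 2 (chr3:142559844-142560025, plus strand) and is shown because its Mll3/4SI level was within 2-fold of control in every gate compared below. Irf7 has no such letters in its window (chr7:141266482-141266624, minus strand) and is shown because it was among the members that differed most.
Isg15: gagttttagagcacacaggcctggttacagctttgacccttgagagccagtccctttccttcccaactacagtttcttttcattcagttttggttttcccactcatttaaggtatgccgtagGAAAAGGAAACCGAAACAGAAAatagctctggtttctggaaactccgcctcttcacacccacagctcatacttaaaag
Ifit1: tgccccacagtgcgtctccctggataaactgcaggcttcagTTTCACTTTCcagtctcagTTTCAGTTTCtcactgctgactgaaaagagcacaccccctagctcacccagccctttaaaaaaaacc
Ifit3: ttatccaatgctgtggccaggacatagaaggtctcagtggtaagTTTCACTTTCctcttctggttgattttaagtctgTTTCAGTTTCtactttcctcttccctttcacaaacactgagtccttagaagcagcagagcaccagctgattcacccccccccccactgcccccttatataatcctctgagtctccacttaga
Rsad2: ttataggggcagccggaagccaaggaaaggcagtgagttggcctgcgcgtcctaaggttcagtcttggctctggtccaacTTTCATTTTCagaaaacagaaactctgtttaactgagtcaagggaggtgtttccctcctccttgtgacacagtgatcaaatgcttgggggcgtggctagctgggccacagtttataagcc
Oas3: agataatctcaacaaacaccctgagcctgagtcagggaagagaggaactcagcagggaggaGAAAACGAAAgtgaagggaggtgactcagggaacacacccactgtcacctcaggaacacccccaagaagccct
Gbp3: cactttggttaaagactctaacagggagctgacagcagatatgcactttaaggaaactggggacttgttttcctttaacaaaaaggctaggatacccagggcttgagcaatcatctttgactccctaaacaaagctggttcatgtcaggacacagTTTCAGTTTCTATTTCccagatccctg
Irf7: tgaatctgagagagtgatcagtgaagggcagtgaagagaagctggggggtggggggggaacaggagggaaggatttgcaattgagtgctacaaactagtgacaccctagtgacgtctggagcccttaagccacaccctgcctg
A match is a description of letters and not a site in use. Among the 16 members that were at least 2-fold higher in Mll3/4SI cells in every gate described below, 10 had a promoter entry and 5 of these held the ISRE letters. Among the 12 that were 2-fold higher in no gate, 11 had an entry and 5 held the letters. The Ifit3 and Ifit3b windows share a run of 169 identical bases. Ifit3 and Ifit3b are close copies, as are Oas1a and its neighbours and several Gbp genes, so the split of counts within these groups is uncertain.

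Barcodes per library numbered 12205 to 16861, and total UMIs (unique molecular identifiers, counted once per captured transcript molecule) 85445426 to 166327773. After filtering, 11501 to 15380 cells remained in the Mll3/4SI, deleted and B220lo libraries and 11051 in the control Kit+ library. Median depth of kept cells was 11594 UMIs in control Kit+, 6507 in deleted, 11969 in Mll3/4SI and 3246 in B220lo. Between 178 and 292 cell barcodes were shared by a pair of libraries, at most 2.14% of the smaller library. CPM below is the count of a gene in a group of cells scaled to 1000000 UMIs of that group. Y-linked genes reached 148 CPM in deleted cells, against 0.0143 CPM in control Kit+, 0.0331 CPM in Mll3/4SI and 0.570 CPM in B220lo cells, so that Y-linked transcripts differed together with the deletion and cannot be told apart from it here.

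Cells were grouped by gates on the raw UMIs of 1 gene per cell. Hlf (at least 1 UMI) is a transcription factor of stem and early progenitor cells, Elane (at least 10) is a neutrophil granule protease, and Car1 (at least 10) is a carbonic anhydrase of erythroid progenitors. Fcer1a (at least 3) is a chain of the IgE receptor of basophils and mast cells, Cd79a (at least 3) is a chain of the B-cell receptor, and Siglech (at least 2) marks plasmacytoid dendritic cells. In control Kit+, deleted, Mll3/4SI and B220lo order, the gates held 2493, 186, 3238 and 58 cells for Hlf, 4223, 554, 3345 and 102 for Elane, and 2288, 62, 869 and 17 for Car1. They held 127, 4, 2341 and 26 cells for Fcer1a, 47, 12591, 28 and 10839 for Cd79a, and 1, 0, 1 and 1770 for Siglech. A gate under 50 cells was listed and not compared.

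Marker lists were summed in each gate, and the Hlf gate held a mixture. HSPC markers (hematopoietic stem and progenitor cells, 12 genes) summed to 1301 CPM in control Hlf cells, where 10 granulocyte markers summed to 17224 CPM, and 707 of those 2493 cells also passed the Elane gate. Granulocyte markers summed to 43936 CPM in control Elane cells and erythroid markers to 6370 CPM in control Car1 cells. Basophil or mast markers summed to 3434 CPM in control and 3599 CPM in Mll3/4SI Fcer1a cells, where other lists differed. Erythroid markers stood there at 350.3 and 151 CPM, and plasmacytoid dendritic cell markers at 209 and 391 CPM. The plasmacytoid list holds the interferon-induced gene Bst2, which alone stood at 119 CPM in control and 301 CPM in Mll3/4SI Fcer1a cells. NK or T markers stood at 527 and 44.6 CPM, with 1 of the 10 genes at or above 1 CPM in control and 2 in Mll3/4SI Fcer1a cells. All 10 plasmacytoid dendritic cell markers were above 1 CPM in the Siglech gate, where they summed to 17323 CPM. Gates overlapped elsewhere too, and 700 Mll3/4SI cells passed both Hlf and Fcer1a against 17 control cells. At the edge of the Hlf gate, member sums (in CPM, as defined above) were 1126 at 1 Hlf UMI and 922 at 0 UMIs in control, and 1900.2 and 1990 in Mll3/4SI cells. At the edge of the Fcer1a gate they were 998 at 3 and 951 at 2 UMIs in control, and 2183 and 1999.6 in Mll3/4SI cells. At the edge of the Cd79a gate they were 1339 at 3 and 1235 at 2 UMIs in deleted, and 1232 and 1369.9 in B220lo cells. In control Kit+ cells with 10 to 14 and 5 to 9 UMIs of the gate's gene, they were 1043 and 1149.7 around the Elane gate and 1124 and 1106 around the Car1 gate. In Mll3/4SI cells they were 2033.5 and 2111.8 around the Elane gate and 2427 and 2582 around the Car1 gate.

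Summed over the 37 members, the level in control Kit+ cells was highest in the Hlf gate among gates of at least 50 cells, at 1246 CPM (1233 to 1258). It was 959 CPM (909 to 1011) in Fcer1a cells, 856 CPM (848 to 863) in Elane cells and 788 CPM (780 to 797) in Car1 cells. The intervals of these 4 gates do not overlap. Ifitm3, a membrane protein that blocks virus entry, made up much of it: it held 40.1% of the member UMIs of control Hlf cells and 41.5% of those of Elane cells. Without Ifitm3 the order of the sums was Hlf (747 CPM), Fcer1a (668 CPM), Car1 (607 CPM) and Elane (501 CPM).

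The Mll3/4SI library was higher than control in every gate compared. Its sums were 2110.1 CPM in Hlf cells (log2 ratio 0.76, 0.74 to 0.78), 1378 CPM in Elane cells (0.69, 0.67 to 0.70), 1909.9 CPM in Car1 cells (1.28, 1.25 to 1.30) and 2044 CPM in Fcer1a cells (1.09, 1.01 to 1.17). The deleted library stood near control, at 1267 CPM in Hlf cells (0.02, -0.02 to 0.07), 799.8 CPM in Elane cells (-0.10, -0.13 to -0.06) and 966 CPM in Car1 cells (0.29, 0.21 to 0.38). Both sets of ratios share the control Kit+ cells. Markers of other cell types moved with the Mll3/4SI sums. In control and Mll3/4SI Hlf cells, basophil or mast markers summed to 365 and 1153 CPM, erythroid markers to 863 and 252 CPM, megakaryocyte markers to 319 and 148 CPM, and NK or T markers to 466 and 90.2 CPM. Basophil or mast markers stood at 304 and 764 CPM in Elane cells and at 131 and 224 CPM in Car1 cells. NK or T markers stood there at 722 and 278 CPM and at 97.5 and 19.3 CPM. Of the 10 NK or T markers, 2 were at or above 1 CPM in Hlf and Elane cells and 1 in Car1 cells, in both libraries. Plasmacytoid dendritic cell markers stood at 316 and 422, 414 and 438, and 202 and 345 CPM in Hlf, Elane and Car1 cells. Among them, the induced gene Bst2 stood at 167 and 283, 174 and 258, and 140 and 291 CPM. Granulocyte markers stood at 17224 and 13333, 43936 and 49778, and 1310 and 1103 CPM. The part of all these markers in the result was not tested. Control B220lo cells had 1305 CPM in 58 Hlf cells and 1279 CPM in 102 Elane cells, beside B-lineage marker sums of 2137 and 901 CPM, and were not compared with Kit+ cells. The spread among mice of 1 group is not known, so a small log2 ratio such as these last cannot be set against it.

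**Figure D1:**
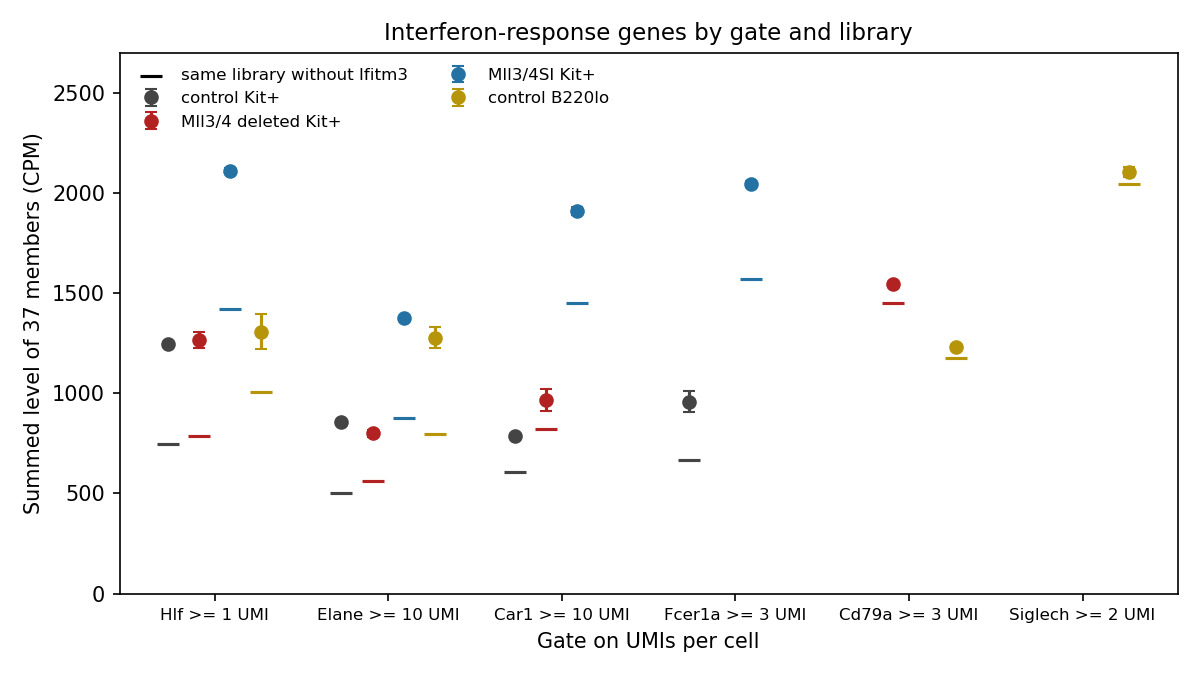
Summed level of the 37 measured members in CPM (vertical axis) by gate (horizontal axis) and library (colour), for gates of at least 50 cells. Points are 1 library each, bars are exact Poisson intervals for counting error, and dashes give the sum without Ifitm3; the Mll3/4SI points lie above the control Kit+ points in all 4 gates compared.

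Counts of members followed the sums. A member was counted when its log2 ratio, with a pseudocount of 1 CPM, reached a fold of 2. In Mll3/4SI Hlf cells 19 of 37 members were at least 2-fold higher and 0 lower, against 1.51% higher and 1.18% lower of 12531 genes. Elane cells had 16 higher and 0 lower, against 1.39% and 0.569% of 11955 genes. Car1 cells had 22 higher and 0 lower, against 0.829% and 0.498% of 11454 genes. Fcer1a cells had 21 higher and 0 lower, against 4.69% and 5.85% of 12400 genes. The median member stood at a log2 ratio of 1.06, 0.89, 1.31 and 1.22 in these gates, and the median of all genes between 0.00 and 0.04. With a pseudocount of 10 CPM in place of 1, the counts higher were 4, 4, 15 and 13, against 0.407%, 0.368%, 0.253% and 0.984% of all genes. Because the members were chosen on these libraries, these counts describe them and support nothing further.

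In deleted cells the counts differed by gate. Hlf cells had 2 members at least 2-fold higher and 0 lower, against 2.79% and 3.29% of 12607 genes. Elane cells had 1 higher and 1 lower, against 2.52% and 1.99% of 12029 genes, and Car1 cells had 5 higher and 0 lower, against 3.11% and 3.41% of 11577 genes. In Car1 cells, 62 in the deleted library, 27 of 37 members were higher by any amount, with a median log2 ratio of 0.33, against 52.96% of all genes and a median of 0.019. In Hlf cells 15 members were higher and 22 lower, with a median of -0.059, against 50.96% of all genes higher. Elane cells had 21 higher and 16 lower, with a median of 0.055, against 55.19% of all genes higher. With a pseudocount of 10 CPM the counts at least 2-fold higher were 1, 1 and 0, against 0.825%, 0.748% and 0.544% of all genes. Of the deleted cells, 84 of 186 in Hlf, 152 of 554 in Elane and 8 of 62 in Car1 passed another gate, and the members were also read in cells that passed 1 gate only, 102 in Hlf, 402 in Elane and 54 in Car1. There 10, 19 and 27 members were higher by any amount, against 48.8%, 53.3% and 50.5% of all genes. The median member stood at -0.41, 0.017 and 0.38. In the same order 0, 0 and 6 members were at least 2-fold higher, against 2.89%, 1.10% and 2.62% of all genes, and 4, 1 and 0 lower, against 5.61%, 2.11% and 3.79%. The 6 of Car1 cells were Dhx58, Oas3, Isg15, Rtp4, Ifi44 and Ifi27l2a, on 5 to 52 UMIs each in the deleted cells. Of the 4 in Hlf cells, Isg20 rested on 15 UMIs and Zbp1 on 3 in the deleted cells. The other 2, Ifit3 and Cxcl10, had 0 UMIs there, which allows up to 2.17 CPM (3 counts) and so shows no difference from the 1.38 and 1.73 CPM of control.

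**Figure D2:**
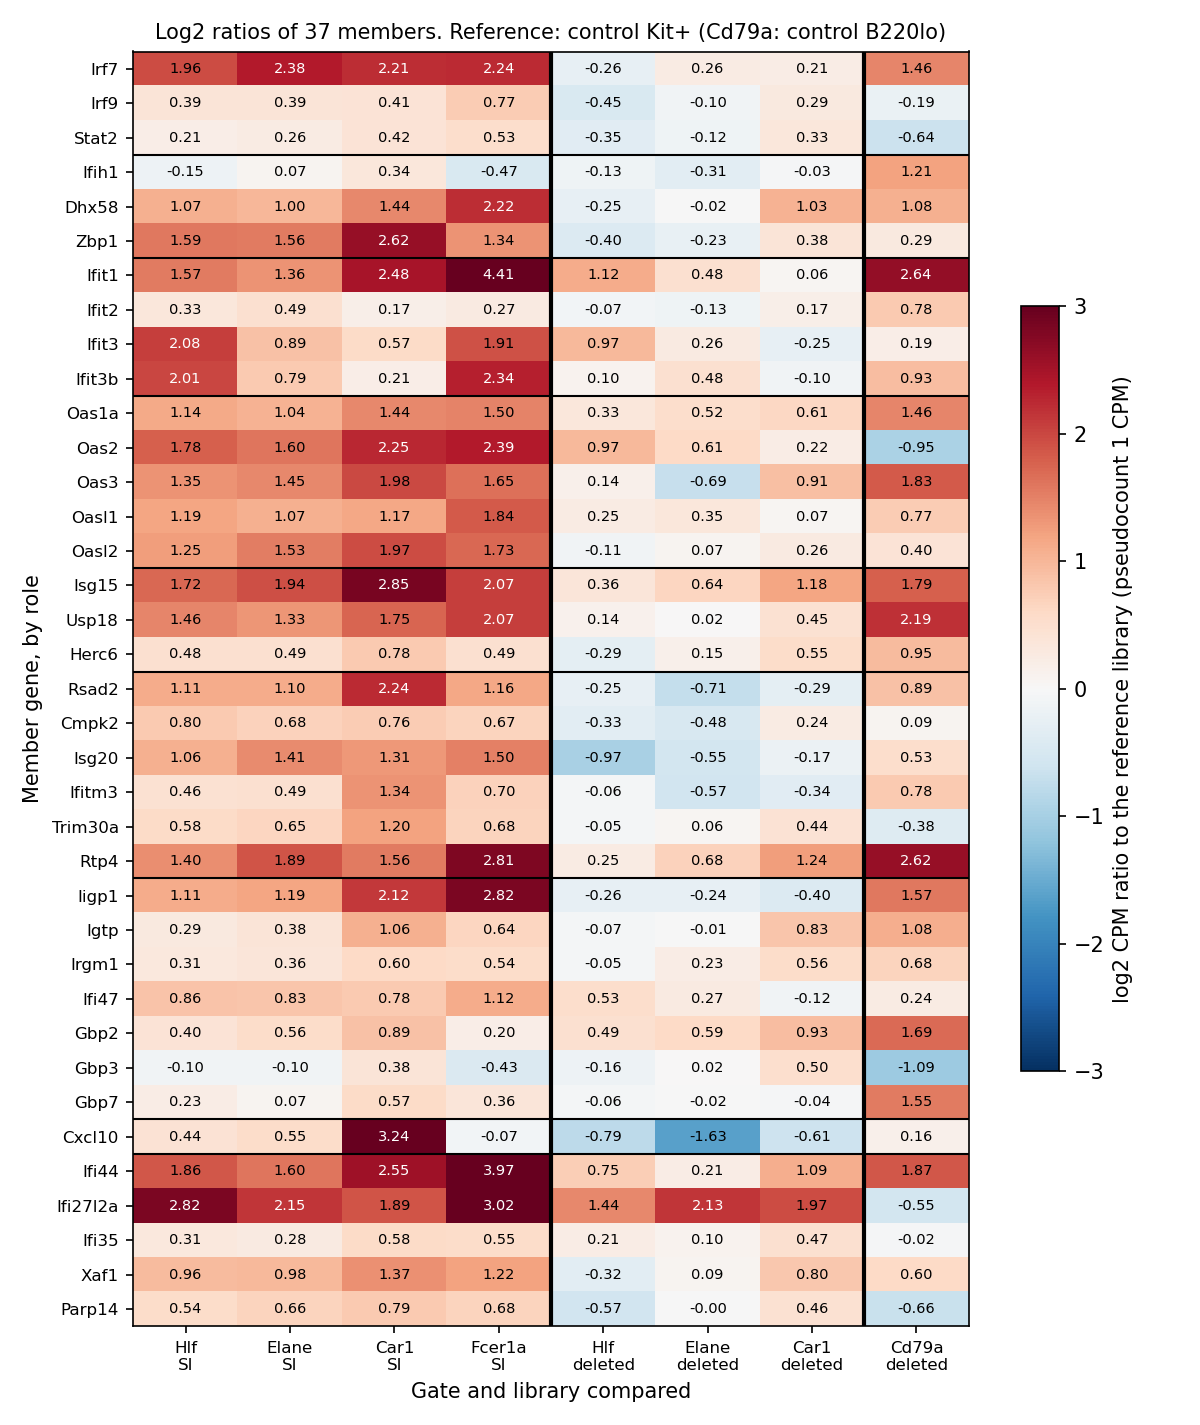
Log2 CPM ratio of each member (rows, ordered by role) to the reference library in each gate and library compared (columns), with a pseudocount of 1 CPM; the colour scale ends at 3 and the printed numbers are not cut. The 4 Mll3/4SI columns are mostly red, with 19, 16, 22 and 21 members at or above 1, and the first 3 deleted columns are mostly pale, with 2, 1 and 5.

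Among the regulators, Irf7, the factor that amplifies interferon production, differed most. In Hlf cells it stood at 16.7 CPM in control, 13.8 in deleted and 67.8 in Mll3/4SI cells. In Elane cells it stood at 5.33, 6.56 and 32.0 CPM in the same order, and in Car1 cells at 19.6, 22.8 and 94.0 CPM. The Mll3/4SI library was the high one each time, by 4.07-fold (3.70 to 4.49), 6.01-fold (5.35 to 6.78) and 4.81-fold (4.41 to 5.24), and deleted cells overlapped control within counting error. Fcer1a cells had 15.4 CPM in control and 76.5 CPM in Mll3/4SI. Irf9 and Stat2, which encode subunits of ISGF3, differed less. Irf9 stood at 37.5 CPM in control and 49.4 CPM in Mll3/4SI Hlf cells, and Stat2 at 19.0 and 22.1 CPM. Neither reached 2-fold in any Mll3/4SI gate.

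The sensors split. Ifih1, which encodes the RNA sensor MDA5, stood at 29.2 CPM in control and 26.1 CPM in Mll3/4SI Hlf cells, at 30.9 and 22.1 CPM in Fcer1a cells, at 18.5 and 19.5 CPM in Elane cells and at 32.1 and 41.0 CPM in Car1 cells. Zbp1, a sensor of Z-form nucleic acid, was higher in Mll3/4SI cells in all 4 gates, from 3.40 to 26.0 CPM in Car1 cells and from 6.38 to 21.2 CPM in Hlf cells. Dhx58, which encodes LGP2, stood at 12.3 CPM in control and 26.9 CPM in Mll3/4SI Hlf cells, and at 5.62 and 29.7 CPM in Fcer1a cells. Ifih1 was thus the sensor without a higher level in every gate.

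All 5 OAS genes were at least 2-fold higher in Mll3/4SI cells in all 4 gates. Oas1a stood at 26.9 CPM in control, 34.1 in deleted and 60.5 in Mll3/4SI Hlf cells. Oas2 stood at 2.87, 6.56 and 12.3 CPM there, and Oas3 at 7.03, 7.88 and 19.5 CPM. Summed over the family, Hlf cells had 66.7 CPM in control, 78.4 in deleted and 165 in Mll3/4SI, and Car1 cells had 49.5, 68.5 and 154 CPM. The deleted sums lay nearer control than Mll3/4SI in both gates. In Hlf cells of 1 gate only, Oas1a stood at 32.3 CPM in control and 63.5 CPM in Mll3/4SI cells, a log2 ratio of 0.96 that no longer reached 2-fold.

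The IFIT genes were unequal. Ifit1 stood at 4.61 CPM in control, 11.2 in deleted and 15.6 in Mll3/4SI Hlf cells, at 1.87, 3.01 and 6.37 CPM in Elane cells, and at 2.22, 2.36 and 16.9 CPM in Car1 cells. It had 0 UMIs in the 127 control Fcer1a cells against 20.2 CPM in Mll3/4SI, at least 9.60-fold higher when control is set to 3 counts over the gate. Ifit2 stayed close, with 14.2 CPM in control and 18.2 CPM in Mll3/4SI Hlf cells. Ifit3 was low in every Kit+ gate of at least 50 cells, and it stood at 1.02 CPM in control, 2.95 in deleted and 7.57 in Mll3/4SI Hlf cells. In cells of 1 gate only, Ifit1 stood at 4.33 CPM (6 UMIs) in deleted and 6.37 in control Hlf cells. It stood at 1.36 (10 UMIs) and 1.49 CPM in Elane cells, and at 2.72 (3 UMIs) and 1.91 CPM in Car1 cells. Counts this small fix no direction, and the higher deleted level of the whole Hlf and Elane gates was not seen in these cells. For Ifit3 those cells show no direction, with 0 UMIs in deleted Hlf cells and 2 in deleted Elane cells. B-lineage markers were higher in the deleted gates, as given with Ifi27l2a, and Ifit1 stood at 21.2 CPM in deleted Cd79a cells.

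Isg15 and Usp18, which removes the ISG15 tag and dampens receptor signalling, stood apart from Herc6, the ligase that attaches the tag in mice. Isg15 stood at 22.6 CPM in control, 29.2 in deleted and 76.6 in Mll3/4SI Hlf cells. In Car1 cells it stood at 21.01, 48.8 and 158 CPM, a ratio to control of 2.32 (1.77 to 3.01) in deleted and 7.52 (6.96 to 8.13) in Mll3/4SI. The deleted Car1 value rests on 62 cells. Usp18 stood at 10.6 CPM in control, 11.8 in deleted and 31.0 in Mll3/4SI Hlf cells. In Hlf cells of 1 gate only the deleted values were the lower ones, on few UMIs. Isg15 stood there at 21.7 CPM (30 UMIs) against 30.2 in control and Usp18 at 10.1 (14 UMIs) against 15.8 CPM. The higher deleted values of the whole gate were thus not seen in these cells, and no direction is drawn from them. Herc6 stood at 31.9, 25.9 and 45.0 CPM and did not reach 2-fold in any Mll3/4SI gate.

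Other antiviral effectors followed in part. Rtp4, a chaperone of membrane receptors, stood at 32.7 CPM in control, 39.05 in deleted and 87.6 in Mll3/4SI Hlf cells, and at 14.7 and 109 CPM in control and Mll3/4SI Fcer1a cells. Rsad2, which encodes viperin, stood at 6.45, 5.25 and 15.1 CPM in control, deleted and Mll3/4SI Hlf cells. Isg20, an RNA exonuclease, stood at 22.1, 10.8 and 47.2 CPM there. Deleted cells were the low ones for Isg20 and the Mll3/4SI cells the high ones. Ifitm3 stood at 499, 479 and 686 CPM in Hlf cells and at 355, 238 and 499 CPM in Elane cells. Leaving Ifitm3 alone out of the sum, a reading chosen after seeing the data, turned the deleted Elane log2 ratio from -0.10 to 0.17 (0.13 to 0.21). Leaving out the 3 members with the highest mean, Ifitm3, Ifi27l2a and Ifi47, gave 0.07.

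Of the GTPases, which act on membranes around intracellular pathogens, Iigp1 was the member at least 2-fold higher in every Mll3/4SI gate. It stood at 10.00 CPM in control, 8.20 in deleted and 22.7 in Mll3/4SI Hlf cells, and at 3.44, 2.36 and 18.4 CPM in Car1 cells. In Hlf cells of 1 gate only it stood at 18.2 CPM in control and 28.2 in Mll3/4SI, under 2-fold. Gbp3 stood at 35.7, 31.8 and 33.2 CPM in Hlf cells and at 50.6, 51.3 and 47.0 CPM in Elane cells. Over the 4 Mll3/4SI gates its log2 ratio to control ran from -0.43 to 0.38. Gbp2 and Gbp7 reached 2-fold in no Mll3/4SI gate, and the same held for Irgm1. Cxcl10, a chemokine that draws T cells, rested on few cells. Its 226 UMIs in Mll3/4SI Car1 cells lay in 15 cells, and 51.8% of them in 1 cell, so its 13.5 CPM against 0.530 in control is a value of single cells.

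Across the 4 Mll3/4SI gates, which share both libraries, 16 members were at least 2-fold higher in every gate, against 0.401% of the 10961 genes measured in all 4. They were Irf7, Zbp1, Ifit1, the 5 OAS genes, Isg15, Usp18, Rsad2, Isg20, Rtp4, Iigp1, Ifi44 and Ifi27l2a. In cells of 1 gate only, 10 of these 16 were at least 2-fold higher in every gate, against 0.243% of all genes, and with a pseudocount of 10 CPM 3 were, Irf7, Isg15 and Rtp4, against 0.0730%. Oas1a, Zbp1, Rsad2, Isg20, Rtp4 and Iigp1 were the 6 under 2-fold in at least 1 gate when cells of 1 gate only were read. A further 18 were higher in every gate without reaching 2-fold in all of them, and 12 reached 2-fold in none. The share of all genes higher by any amount in every gate was not counted, so these 18 have no background beside them. In Hlf, Elane, Car1 and Fcer1a cells taken singly, 55.8%, 60.4%, 51.2% and 50.2% of all genes were higher. Ifih1, Gbp3 and Cxcl10 were the members not higher in every gate.

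Ifi27l2a, which encodes a small membrane protein of the ISG12 family, was the member at least 2-fold higher in all 3 deleted gates. It stood at 14.03 CPM in control, 39.7 in deleted and 105 in Mll3/4SI Hlf cells. In Elane cells it stood at 6.14, 30.3 and 30.8 CPM, and in Car1 cells at 3.69, 17.3 and 16.3 CPM. Over the whole gates, deleted and Mll3/4SI cells were both above control, and in the Elane and Car1 gates they stood at like levels. The level of Ifi27l2a was 343 CPM in the Cd79a gate of the deleted library, which held 12591 of its 13747 cells. B-lineage markers moved with it: the 10 genes summed to 1047 CPM in deleted Hlf cells against 44.6 in control and 44.5 in Mll3/4SI, to 963 CPM in deleted Elane cells against 55.9 and 53.3, and to 528 CPM in deleted Car1 cells against 9.11 and 18.3. All 10 were above 1 CPM in each deleted gate. Of deleted cells, 24 of 186 in the Hlf gate and 92 of 554 in the Elane gate also passed the Cd79a gate. In cells that passed 1 gate only, Ifi27l2a stood at 38.998 CPM in deleted and 21.8 in control Hlf cells (log2 0.81), at 9.41 and 5.86 CPM in Elane cells (log2 0.60), and at 10.9 and 3.40 CPM in Car1 cells (log2 1.44). Mll3/4SI cells of 1 gate only had 125, 27.8 and 14.9 CPM in the same order. The like level of deleted and Mll3/4SI Elane cells was thus not seen there. B-lineage markers summed to 269, 148 and 93.5 CPM in the deleted cells of 1 gate only, against 44.8, 53.8 and 6.07 CPM in control. The part of B-lineage transcripts in these values was not tested.

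In the Cd79a gate the deleted library was set against control B220lo cells, which differ in sort as well as genotype. The sum was 1547 CPM in deleted and 1232 CPM in B220lo cells (log2 0.33, 0.32 to 0.34). Of 37 members, 14 were at least 2-fold higher and 1 lower, against 13% higher and 12.8% lower of 12993 genes, and the median member stood at 0.78. With a pseudocount of 10 CPM 8 were higher, against 5.03% of all genes. Rtp4 stood at 112.6 CPM in deleted and 17.5 CPM in B220lo cells (6.43-fold, 6.01 to 6.87), Ifit1 at 21.2 and 2.56 CPM, and Usp18 at 47.1 and 9.54 CPM. Isg15 (63.2 against 17.6 CPM), Ifi44 (13.9 against 3.08 CPM), Oas3 (9.44 against 1.93 CPM) and Irf7 (38.0 against 13.2 CPM) were also higher in deleted cells. Members differed in both directions, and Ifi27l2a was lower in deleted cells, at 343 CPM against 505 CPM. Gbp3 stood at 5.72 against 13.3 CPM, Oas2 at 1.13 against 3.12 CPM, Parp14 at 31.4 against 50.3 CPM and Stat2 at 22.5 against 35.6 CPM. The B-lineage sums were 15359 CPM in deleted and 11443 CPM in B220lo cells, and the monocyte or macrophage sums 28.4 and 464 CPM. Irf8, which is in that last list and in the plasmacytoid dendritic cell list, alone stood at 7.71 and 240.0 CPM. HSPC markers summed to 883 and 117 CPM, plasmacytoid dendritic cell markers to 1202 and 3046 CPM, erythroid markers to 241 and 671 CPM and NK or T markers to 17.4 and 112 CPM. Their part in the result was not tested.

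**Figure D3:**
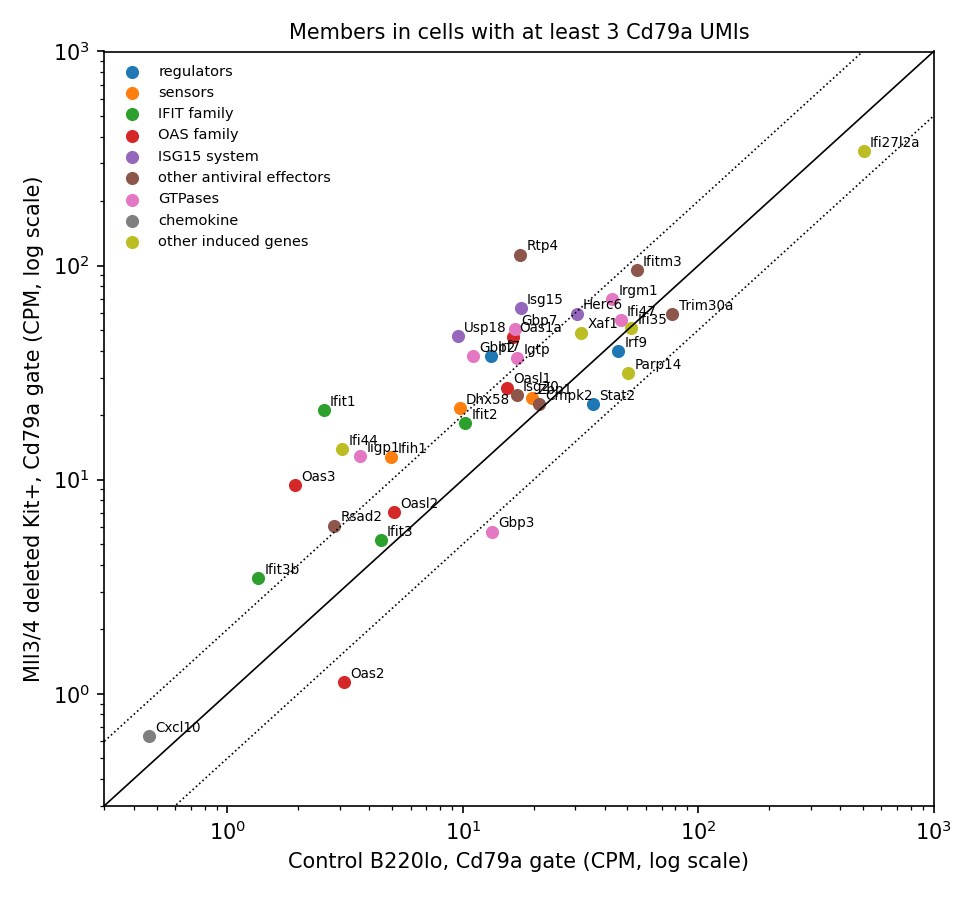
Level of each member in cells with at least 3 Cd79a UMIs, deleted Kit+ library (vertical, CPM, log scale) against control B220lo library (horizontal, CPM, log scale), coloured by role. The solid line marks equal levels and the dotted lines a 2-fold difference without the pseudocount; Rtp4 and Ifit1 lie above the upper line, Gbp3 and Oas2 below the lower.

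Plasmacytoid dendritic cells are the cells known to make most type I interferon, and their Irf7 level is known to be high at rest. The 1770 Siglech cells of the B220lo library had a member sum of 2107 CPM (2081 to 2133), above the 1232 CPM of Cd79a cells of that library. Irf7 stood at 195 CPM in Siglech and 13.2 CPM in Cd79a cells, Stat2 at 141.0 and 35.6 CPM, and Trim30a at 244 and 77.6 CPM. Ifi27l2a stood at 747 and 505 CPM. The IFIT and OAS genes were mixed, with 1 of 4 and 1 of 5 higher in Siglech cells and sums of 19.7 against 18.6 CPM and 35.3 against 41.8 CPM. The share of all genes higher in Siglech cells was not counted, so these counts have no background and are a description only. Ifit1 stood at 1.32 against 2.56 CPM and Oas1a at 6.74 against 16.3 CPM, while Ifit2 stood at 14.6 against 10.2 CPM and Oasl2 at 16.5 against 5.12 CPM. The 2 gates share 187 cells.

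Ligands were at or near 0. Over all kept cells, 14 UMIs of the 21 ligand genes were counted in control Kit+, 43 in deleted, 30 in Mll3/4SI and 95 in B220lo cells. Ifnb1 had 10 UMIs in the Mll3/4SI library and 0 in the other 3, where 0 allows up to 0.0215, 0.0270 and 0.0389 CPM (3 counts, counting error only). Ifng, the type II ligand, had 85 of the 95 ligand UMIs of the B220lo library.

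Of 9 receptor and kinase genes, 0 were at least 2-fold higher in Mll3/4SI Hlf, Elane, Car1 and Fcer1a cells, against 1.51%, 1.39%, 0.829% and 4.69% of all genes. In lists this short a count of 0 or 1 lies near those shares. Ifnar2 stood at 131 CPM in both control and Mll3/4SI Hlf cells, a gene named after its values were seen. Ifngr1, the receptor chain for interferon gamma, stood at 311 CPM in control and 80.0 CPM in Mll3/4SI Fcer1a cells. Among 11 signalling factors and brakes, Socs1, an inhibitor of JAK kinases, was the one at least 2-fold higher in Fcer1a cells, at 1.40 against 8.16 CPM, the control value from 2 UMIs. Of 16 nucleic acid sensing genes 0 were at least 2-fold higher in Hlf cells and 1 in each of Elane, Car1 and Fcer1a cells, with 0 lower. That 1 was Ddx58, which encodes the RNA sensor RIG-I, at 8.46 CPM in control and 17.9 in Mll3/4SI Elane cells, 11.4 and 25.7 CPM in Car1 cells, and 20.4 and 47.3 CPM in Fcer1a cells.

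Of 62 other induced genes measured, 9 were at least 2-fold higher in Mll3/4SI Hlf cells, 5 in Elane, 12 in Car1 and 21 in Fcer1a cells, against 1.51%, 1.39%, 0.829% and 4.69% of all genes. In the same order 0, 0, 0 and 2 were lower, against 1.18%, 0.569%, 0.498% and 5.85% of all genes. Ifi213, a gene of the DNA-binding HIN-200 family, stood at 0.819 CPM in control, 11.2 in deleted and 10.3 in Mll3/4SI Hlf cells. In Elane cells it stood at 0.288, 7.11 and 3.38 CPM, so that both libraries were above control. The deleted values rest on 34 and 78 UMIs and stand beside the B-lineage sums given above, whose part was not tested. Oas1g stood at 0.988 and 10.4 CPM in Car1 cells. Ifitm1 was a lower one, at 915 CPM in control and 213 CPM in Mll3/4SI Fcer1a cells and at 392 and 262 CPM in Hlf cells. Of 13 class I antigen presentation genes 0 reached 2-fold in any Mll3/4SI gate, with H2-Q7, a class I chain, at 231 and 305 CPM in Hlf cells.

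Against B220lo cells, the deleted Cd79a cells had 5 of 11 signalling factors and 5 of 16 nucleic acid sensing genes at least 2-fold lower, and 0 and 1 higher, against 12.8% of all genes lower and 13% higher. Of 13 class I presentation genes 3 were higher and 0 lower, of 9 receptors and kinases 2 and 0, and of 62 other induced genes 13 and 13. Tap1, a subunit of the peptide transporter, stood at 246 CPM in deleted and 103 CPM in B220lo cells. Irf8, a factor of B cells, dendritic cells and monocytes, stood at 7.71 CPM in deleted and 240.0 CPM in B220lo cells. Tlr9, the receptor for DNA in endosomes, stood at 0.0204 and 22.6 CPM, and Ptpn6, a phosphatase that restrains JAK signalling, at 15.5 and 275 CPM. Ifi208, another HIN-200 gene, stood at 202 and 11.6 CPM. In deleted Hlf, Elane and Car1 cells Ifi208 stood at 17.7, 11.6 and 8.66 CPM, against 0.239, 0.0480 and 0.0241 CPM in control, beside the B-lineage sums given above.

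Single cells were compared after each was thinned to 2000 UMIs, since the number of members detected grows with depth. Cells with at least 10 members were 40 of 10852 in control Kit+ (0.369%, 0.263 to 0.502), 277 of 13292 in deleted (2.08%, 1.85 to 2.34), 480 of 11376 in Mll3/4SI (4.22%, 3.86 to 4.61) and 132 of 13161 in B220lo (1.003%, 0.840 to 1.19). Without thinning the shares were 17.4%, 24.2%, 46.0% and 5.33%. The order of the B220lo and control Kit+ libraries turns between the readings, and their median depths were 3246 and 11594 UMIs. The class is a range and not a cell type: in the Mll3/4SI library 173 cells had 9 members and 92 had exactly 10.

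**Figure D4:**
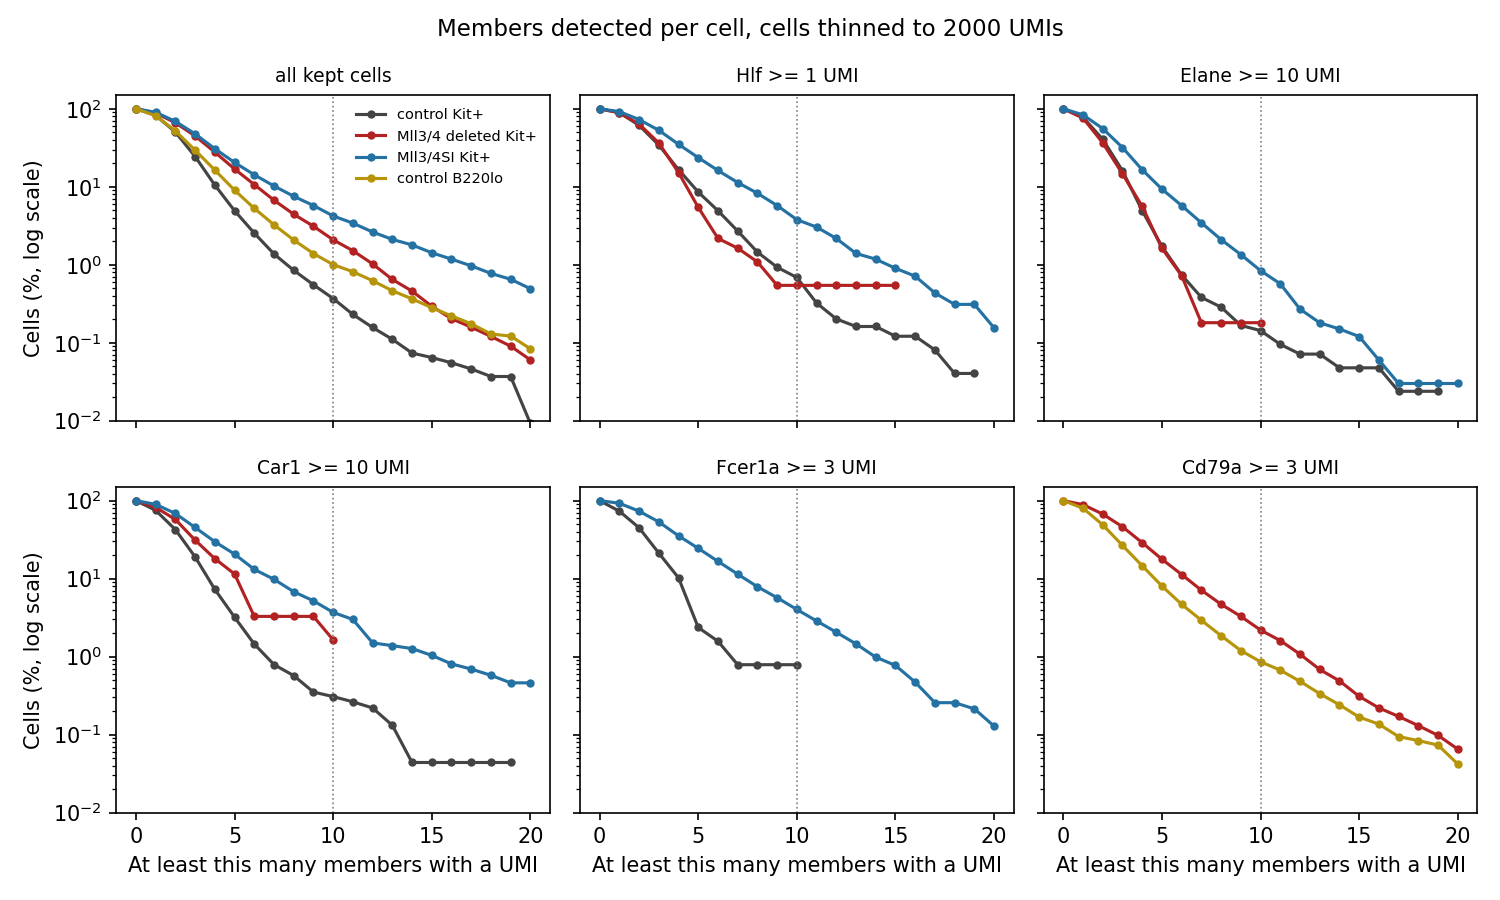
Share of cells (vertical, percent, log scale) with at least the number of members on the horizontal axis detected, for all kept cells and for 5 gates, after thinning to 2000 UMIs, in each library (colour; B220lo in the first and last panel only). The dotted line marks 10 members; the Mll3/4SI curve lies highest at 10 members in all kept cells and in the Hlf, Elane, Car1 and Fcer1a gates, and points of the deleted library at 10 members in Hlf, Elane and Car1 cells are 1 cell each.

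By gate, the share was 0.686% in control and 3.78% in Mll3/4SI Hlf cells, 0.143% and 0.840% in Elane cells, and 0.307% and 3.69% in Car1 cells. Deleted Hlf, Elane and Car1 cells had 1 such cell each, among 184, 554 and 61. In the Cd79a gate 2.19% of deleted and 0.859% of B220lo cells reached 10 members. The whole distribution was higher in Mll3/4SI cells too, not the top alone: the median Hlf cell had 1613 CPM of members against 1163 in control, the cell at percentile 10 had 683 against 535 CPM, and that at percentile 90 had 4683 against 2529 CPM. Leaving out the 1% of cells with the highest sums gave a log2 ratio of 0.73 in Hlf cells.

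Of the 480 Mll3/4SI cells with at least 10 members, 122 were in the Hlf gate, 94 in the Fcer1a gate, 32 in the Car1 gate and 28 in the Elane gate, and 234 in none. Their median depth was 7568 UMIs, against 12265 for the other cells of that library. Among the 277 deleted cells, 269 were in the Cd79a gate. In those, Isg15 stood at 697 CPM against 54.6 in the other Cd79a cells and Ifit1 at 352 against 16.6 CPM, values the definition used. Outside the member and pathway lists, Ddx60, a helicase linked to RNA sensing, stood at 137 against 19.0 CPM and Tor3a at 197 against 47.5 CPM. Ly6a (the stem cell antigen Sca-1) stood at 608 against 142 CPM. It is itself in the HSPC marker list, which summed to 1455 CPM in these cells and 872 CPM in the others.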

How the data were processed

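Cells were counted with the 10x Genomics 5′ version 2 kit, which reads transcripts near their start. The authors deposited raw UMI counts, genes by barcodes and without normalization, from Cell Ranger 7.1.0 and build mm10, per the submitters' processing notes. Deposited contig tables were not used. The 39 members and every gene list were chosen with earlier results of these data known.

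Barcodes were kept with at least 1000 UMIs, 500 genes and at most 10% mitochondrial UMIs. Scrublet (scanpy 1.11.5, expected share 8%) scored doublets per library, and scores from 0.25 were removed, 840 barcodes in control Kit+, 1168 in deleted, 580 in Mll3/4SI and 949 in B220lo. Raw counts were summed per gate and library and given as CPM. For log2 ratios of single genes 1 CPM was added to both values, so that differences of low genes are understated. Log2 ratios of the summed members had no pseudocount. Shares of all genes are over genes with a mean of at least 1 CPM. Poisson intervals (CPM), conditional binomial intervals (ratios) and Clopper-Pearson intervals (shares) are at 95% and, since 1 library stands for each group, cover counting error only (scipy 1.17.1, numpy 2.4.6). The ratio step was checked on simulated data.

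The rule for named genes took, per comparison, up to 8 members with the largest and 4 with the smallest ratio and the 5 with the highest CPM, the 2 highest and 2 lowest of each pathway list, and the 10 outside genes that most marked cells with at least 10 members (at least 50 UMIs). The text names part of the genes so taken, and others to complete a role, both picked after their values were seen. Marker lists of 9 cell classes were summed in each gate. Alternatives changed the cell filter, doublets, gate overlap and thresholds, depth, denominator, scaling, pseudocount, single members and cells, thinning and the member threshold. 1 gene is not reported here. Leaving out Ifitm3 alone was added after seeing the data.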

Additional observations from a re-analysis of the deposited data

Results flagged for a closer look

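The summed level of the members in deleted over control Kit+ cells had opposite directions in 2 gates, with a log2 ratio of 0.29 in Car1 cells (62 deleted cells) and -0.10 in Elane cells (554 deleted cells). Leaving Ifitm3 alone out of the sum, a reading chosen after seeing the data, gave 0.44 in Car1 and 0.17 in Elane cells, the same direction in both. Each direction is that of 1 library against 1 library, and the difference between the gates was not tested. Both gates held B-lineage transcripts in the deleted library, at 528 CPM and 963 CPM over 10 markers, and their part in the result was not tested.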

How the results depend on the processing

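No paired analysis was possible because each group was 1 library. The values below are log2 ratios of the summed members under other settings, and the cause of each difference was not tested. Keeping doublets, and likewise keeping all deposited barcodes, gave 0.12 for deleted Hlf, 0.82 for Mll3/4SI Hlf, 1.22 for Mll3/4SI Car1 and 0.29 for deleted Cd79a cells, and turned deleted Elane cells from -0.10 to 0.00081 and 0.00082 (all barcodes, doublets kept). Cells of 1 gate only gave -0.10 for deleted Hlf, 0.60 for Mll3/4SI Hlf, -0.20 for deleted Elane, 0.66 for Mll3/4SI Elane, 1.31 for Mll3/4SI Car1 and 0.36 for Cd79a cells. Doubled gate thresholds gave 0.18 for deleted and 0.715 for Mll3/4SI Hlf, 0.66 for Mll3/4SI Elane, 0.19 for deleted Car1 and 1.30 for Mll3/4SI Car1 cells. Cells of 5000 to 20000 UMIs gave 0.25 for deleted and 0.81 for Mll3/4SI Hlf, 0.73 for Mll3/4SI Elane and 0.28 for Cd79a cells. A total without ribosomal, mitochondrial, globin and immunoglobulin genes gave 0.74 for Mll3/4SI Hlf, 0.66 for Mll3/4SI Elane and 0.36 for Cd79a cells, and centring on the median gene 0.74 for Mll3/4SI Hlf and 0.65 for Mll3/4SI Elane cells. Without the 3 highest members the ratios were -0.043 for deleted and 0.85 for Mll3/4SI Hlf, 0.074 (turned) for deleted and 0.77 for Mll3/4SI Elane, 0.46 for deleted Car1 and 0.75 for Cd79a cells, without Ifitm3 alone (chosen after seeing the data) 0.077 for deleted and 0.93 for Mll3/4SI Hlf, 0.17 (turned) for deleted and 0.81 for Mll3/4SI Elane, 0.44 for deleted Car1, 1.23 for Mll3/4SI Fcer1a and 0.30 for Cd79a cells, and without the top 1% of cells 0.73 for Mll3/4SI Hlf and 0.38 for Cd79a cells. The deleted Hlf ratio, within counting error of 0, took both signs. All Mll3/4SI ratios stayed above 0 under every setting run.

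Of members at least 2-fold higher, a pseudocount of 10 gave 1 for deleted and 4 for Mll3/4SI Hlf, 4 for Mll3/4SI Elane, 0 for deleted Car1, 13 for Mll3/4SI Fcer1a and 8 for Cd79a cells. A pseudocount of 0.1 gave 4 in deleted Hlf and 2 in deleted Elane cells, against 4.16% and 3.33% of all genes. Cells of 1 gate gave 0 in both and 6 in deleted Car1 cells, doubled thresholds gave 5 in deleted Hlf cells (4.59% of all genes), and all barcodes or doublets kept gave 3 in deleted Elane cells (4.16% and 4.17%). The share of cells with at least 10 members, in control Kit+, deleted, Mll3/4SI and B220lo order, was 2.43%, 9.16%, 15.7% and 4.97% at 5000 UMIs and 17.4%, 24.2%, 46.0% and 5.33% without thinning. At least 5 members gave 4.93%, 16.9%, 20.5% and 9.03%, and at least 15 gave 0.0645%, 0.293%, 1.42% and 0.281%. Deleted Car1 at 5000 to 20000 UMIs and Mll3/4SI Fcer1a with doubled thresholds were not run, having under 50 cells. The number of cells limits the deleted Car1 gate (62 cells) and the control Fcer1a gate (127 cells).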

Other observations

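Genes outside the member and pathway lists that led the cells with at least 10 members differed in part by gate. Some were shared. Ly6a, a gene of the HSPC list, was among them in deleted Cd79a, Mll3/4SI Hlf (316 against 47.1 CPM) and Mll3/4SI Fcer1a cells (53.2 against 6.82 CPM). Ddx60 was among them in deleted Cd79a and Mll3/4SI Fcer1a cells (117 against 22.2 CPM). In Mll3/4SI Hlf cells the highest ratios were those of Lyz1 (339 against 1.67 CPM in the other cells of the gate) and Ms4a7 (47.3 against 0.589 CPM). Lgals3 (72.6 against 2.75 CPM), Cd74 (349 against 23.9 CPM) and Ctss (168 against 11.7 CPM) came next. These genes are known from macrophages and antigen-presenting cells. The monocyte or macrophage list summed to 138 CPM in these 122 cells and 130 CPM in the others, and granulocyte markers to 5228 and 13581 CPM. Plasmacytoid dendritic cell markers, with the interferon-induced gene Bst2 among them, summed to 939 and 406 CPM, and NK or T markers to 165 and 88.02 CPM. In Mll3/4SI Fcer1a cells the highest ratios were those of Gzmb (579.98 against 34.0 CPM), Cma1 (90.02 against 6.04 CPM) and Mcpt8 (219.9 against 21.7 CPM). These are protease genes of mast cells and basophils. Basophil or mast markers, a list that itself holds Gzmb and Mcpt8, summed to 4911 and 3554 CPM in these and the other cells. This sum is thus no separate reading from those genes. Granulocyte markers summed to 2770.01 and 6530.4 CPM, and plasmacytoid dendritic cell markers, with Bst2 among them, to 991 and 372 CPM.

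In control B220lo Cd79a cells with at least 10 members, Lyz1 stood at 570.04 CPM against 0.0973 CPM, Wfdc17 at 295 against 3.15 CPM, Lyz2 at 3394 against 137 CPM and Ccr2 at 199.7 against 7.38 CPM. The monocyte or macrophage list, which itself holds Ccr2, summed to 1409 CPM in these 82 cells and 458 CPM in the others. The B-lineage list summed to 12578 and 11195 CPM, plasmacytoid dendritic cell markers to 4673 and 2976 CPM and HSPC markers to 272 and 118 CPM. Granulocyte markers summed to 324 and 1182 CPM and erythroid markers to 63.7 and 700 CPM. Whether some of these barcodes held 2 cells was not tested beyond the doublet score, whose median was 0.0550 in the B220lo cells with at least 10 members and 0.0645 in the others.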
